A study of Mus musculus with 6 samples.

Results

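The 3 arrays analysed here show the steady state of 32D cells growing in interleukin-3 (IL-3), out of 6 arrays in the whole experiment. They were chosen by title alone as the 32D-EV IL-3 replicates. 32D is an established mouse myeloid line. The cells carried the empty construct A1-EV and grew in RPMI with 10% fetal calf serum, antibiotics and 10 ng/ml murine IL-3, so every value below was measured with the cytokine present. The other 3 arrays are not described. The experiment is stated to have independent replicates, without saying how the cultures were kept apart. Whether the A1-EV cells were 1 clone or a pool is not given in the labels. Nor do the labels tell how much of the spread between the 3 arrays is technical.

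32D cells survive and divide only while IL-3 is supplied. The cytokine binds a ligand-specific alpha chain (Il3ra) that pairs with a beta chain, either the common chain Csf2rb, shared with the receptors for GM-CSF and IL-5, or the mouse-specific Csf2rb2, used for IL-3 alone. The beta chains bring JAK2 kinases together, JAK2 phosphorylates STAT5A and STAT5B, and these switch on Cish, Socs2, Pim1 and Osm, among them feedback inhibitors of the same pathway. On withdrawal of IL-3 the cells die, and given granulocyte colony-stimulating factor many sublines mature towards neutrophils.

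Each array gives a MAS5 signal on a linear scale for each probe set, scaled so that its trimmed mean, with 2% of values dropped at either end, equals 100. A gene was represented by its probe set with the highest mean over the 3 arrays. It was called expressed if its signal was at least 50 on all 3 arrays, and near the floor if it lay under the array's own median on all 3. Those medians were 14.5, 14.4 and 11.97 on arrays 1, 2 and 3, which are the replicate numbers of the titles. Of 18193 genes, 7424 were expressed, or 40.8%, another 6940 were near the floor, or 38.1%, and 3829 lay between. The median of the mean signals was 22.1 over all genes and 249 over the expressed ones. The limit passes through a continuous range of signals: the lowest values of Trim21 (50.0035) and Pmm1 (50.0074) lay just inside it and those of Fbxl19 (49.9866) and Ring1 (49.9462) just outside. Probe sets bind with different strength, so a signal ranks probe sets and not transcripts, and signals of different genes are not compared as amounts. In what follows, 3 values in a row belong to arrays 1, 2 and 3 in that order, and a value with ± is the mean and its SD over n = 3 arrays. No test was made, since the arrays form 1 group.

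**Figure D1:**
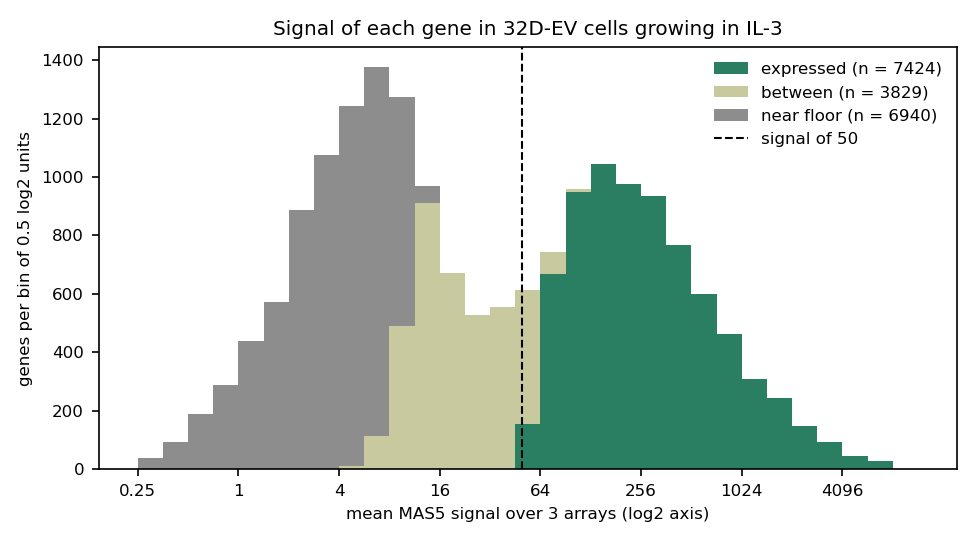
Number of genes by mean MAS5 signal over the 3 arrays of 32D-EV cells in IL-3 (log2 axis, bins of 0.5 log2 units), coloured by class: 7424 expressed, 3829 between and 6940 near the floor. The counts form 2 humps with a dip between them, and the dashed line marks the signal of 50, which lies on the rising side of the right-hand hump.

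The arrays were alike over most of their range and differed at the bright end. Spearman correlations over 45037 probe sets were 0.939 between arrays 1 and 2, 0.923 between 1 and 3 and 0.922 between 2 and 3, as a description over probe sets of the same libraries, and 0 probe sets held identical values on a pair of arrays. The highest signals were 7346, 7428 and 10086. Among the spiked controls CreX read 4832, 4345 and 6594 and BioC 459, 386 and 548, both highest on array 3 as the bright genes were, while DapX read 783, 388 and 361 and was lowest there. Of the 896 genes with a mean of at least 1000, 72.1% were highest on array 3, against 23.5% of the 3475 genes with a mean between 50 and 200. The ratio of 3′ to 5′ probe sets, which grows as RNA breaks down, was 1.29, 1.19 and 1.29 for actin and 0.889, 0.843 and 0.739 for Gapdh.

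The brightest signals came from the translation machinery. Of the 20 brightest genes, 16 encode ribosomal proteins, and the others are the elongation factor Eef1a1, the actin-binding thymosin Tmsb4x, the chaperone Hspa8 and the galectin Lgals1. The brightest of all was Rps29, a protein of the small ribosomal subunit, with 7346, 7348 and 10086. It was followed by Rps3a1 (7782 ± 1301), Rps7 (7601 ± 1147), Rps20 (7377 ± 1166) and Rps18 (7377 ± 1039). Then came Rpl38, Rpl35, Rpsa, Rplp2, Rpl13a, Rps10, Rps4x, Rps24, Eef1a1 (6649 ± 1282), Tmsb4x (6603 ± 1180.2), Hspa8 (6538 ± 1140.5), Lgals1 (6529.9 ± 1591), Rps28, Rpl7a and Rpl4, the last at 6385 ± 1071. Array 3 gave the highest signal for each of these 20 genes. The median over the measured ribosomal proteins was 5327, 5242 and 6990 as deposited, and 5868, 5848 and 5869 once the 3 arrays were given the same distribution of signals. That step gives equal ranks equal values, so genes at the top of every array come out nearly equal by construction.

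Lists of genes of general cell machinery were set beside the classes. The lists were chosen with earlier results of these data known, so they are no separate check. All 29 listed proteasome subunits, all 31 measured subunits of oxidative phosphorylation on the list, all 21 measured translation factors, all 23 measured genes of DNA replication and all 24 of mitosis were expressed, where 40.8% of all genes were. Cytosolic ribosomal proteins were expressed in 43 of 44 measured cases, while 35 of the 79 listed had no probe set of their own. The exception was Rps16, whose only probe set read 5.57, 0.256 and 1.79, and next dimmest was Rpl39 with 99.9, 61.9 and 86.1. A ribosomal protein at that signal shows that a probe set can stay at the floor for a gene that cells need, so a floor signal below does not show that a transcript is missing. At the other end, 22 master factors of other tissues, such as Sox2 of neural and pluripotent cells (0.935 ± 0.818), Pparg of fat (1.26 ± 0.328) Nkx2-5 of the heart (18.1 ± 6.88), Pax6 of the eye (15.4 ± 9.69), Gata6 of endoderm (13.1 ± 3.26) and Sox10 of the neural crest (13.02 ± 1.31), gave 0 expressed genes, 16 near the floor and no mean above 18.1.

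Genes of proliferation gave bright signals. Pcna, the sliding clamp of replication, read 3669, 3553 and 5875, and the replicative helicase subunits Mcm7, Mcm5 and Mcm6 read 2837 ± 279, 2402 ± 208 and 1712 ± 214. Tyms, which makes thymidylate, was the dimmest replication gene with 101, 93.8 and 52.1. In mitosis Top2a, which untangles chromosomes, was brightest at 2580.2 ± 299.7, followed by Cdc20, the activator of the anaphase-promoting complex (2451 ± 352), Mki67 (1965 ± 222) and Ube2c (1683 ± 541). The dimmest was Ndc80 of the kinetochore at 122, 95.6 and 219. Array 3 was highest for 23 of the 24 mitosis genes and 18 of the 23 replication genes. The median signals of these lists were 627 and 684. Over all genes, array 3 was highest for 72.1% of those with a mean of at least 1000. Between 200 and 1000 it was highest for 38.8%. The part of the bright end of that array in this was not tested. Among G1 regulators 14 of 18 were expressed (77.8%, against 40.8% of all genes). Cdk6 stood at 2961 ± 147, the D-type cyclins Ccnd2 at 1067 ± 129 and Ccnd3 at 606 ± 73.2, and Cdk4 at 847 ± 27.4. Ccnd1, the third D-type cyclin, lay below the limit with 31.2, 22.7 and 22.6. The CDK inhibitor Cdkn1a read 1319.5, 912 and 1421, whereas Cdkn2a and Cdkn2b, dimmest of the list, read 1.21 ± 0.700 and 2.65 ± 0.234.

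Metabolic genes were nearly all expressed. In glycolysis 12 of 13 genes were expressed, led by the aldolase Aldoa (3915 ± 212), Ldha (3518 ± 456), Pgk1 (3472 ± 191) and Tpi1 (2253 ± 26.2). The exception was Ldhb, the lactate dehydrogenase chain of heart muscle, at 39.9, 34.1 and 19.1. The muscle phosphofructokinase Pfkm read 133, 145 and 104. Oxidative phosphorylation was led by the cytochrome oxidase subunits Cox6a1 (4585 ± 783), Cox5a (4445 ± 785) and Cox7a2 (4227 ± 823) and by cytochrome c, Cycs (3925 ± 1221). The proteasome was led by Psma6 (3224 ± 189), Psma3 (3178 ± 481), Psmb4 (2522 ± 582) and Psma1 (2259 ± 475), all of the core particle. Among translation factors Tpt1 (6166 ± 1083), the poly(A)-binding protein Pabpc1 (5973 ± 1023) and Eif5a (5401 ± 946) followed Eef1a1. Chaperones were expressed in 19 of 22 cases, with Hsp90aa1 at 5284 ± 865, the endoplasmic reticulum chaperone Hspa5 at 3563 ± 292 and the chaperonin subunit Cct2 at 3138 ± 557. The stress-inducible Hspa1a and Hspa1b were the dimmest chaperones, with 5.97, 5.67 and 3.25 for the former and 7.49, 6.84 and 4.55 for the latter. In the actin and tubulin list 17 of 18 were expressed: Actg1 read 5631 ± 801, Actb 5608 ± 1027 and cofilin, Cfl1, 4323 ± 878, while the tubulin Tubb2a missed with 10.8, 12.03 and 21.0 and the myosin light chain Myl6 passed with 85.5, 131 and 87.9.

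Genes of the IL-3 pathway were mostly expressed: of 21 measured members of the receptor, JAK2 and STAT5 list, 17 were expressed (81.0%, against 40.8% of all genes), with a median signal of 261. The receptor chains came first. The common beta chain Csf2rb read 2736, 1244 and 2675, and the IL-3-specific Csf2rb2 read 1926, 663 and 1727. Both beta chains were at their lowest on array 2, at under 0.5 of their signal on either other array. A second probe set of Csf2rb had the same low array, with 951, 380.3 and 732. The ligand-binding chain Il3ra was dim but steady at 98.5, 133 and 98.7. The alpha chains of the sister receptors did not reach the limit: Csf2ra, for GM-CSF, read 16.3, 12.3 and 19.0 and Il5ra, for IL-5, read 1.48, 7.35 and 0.702. Il3, the gene for the cytokine, lay near the floor at 0.981, 1.24 and 1.49.

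Inside the cell, Jak2 read 493, 318 and 376, Stat5a 265, 235 and 156 and Stat5b 195, 199.8 and 151. Genes of the RAS branch were expressed as well, with the adaptor Grb2 at 628, 452 and 944, the phosphatase Ptpn11 at 517 ± 41.5, Gab2 at 225 ± 23.9 and Shc1 at 94.4 ± 7.02. Inpp5d, the lipid phosphatase that opposes PI3-kinase signalling, read 299, 201 and 263. Values for Lyn, a kinase of the same pathway, are not given because no probe set carries its symbol alone in the annotation used.

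Known targets of STAT5 gave steady or variable signals, depending on the gene. The survival kinase Pim1 read 1789, 2206 and 1710.0, the feedback inhibitor Cish read 866, 918 and 976, and Socs2, another member of that inhibitor family, read 477, 575 and 640.2. For these 3 targets the highest and lowest arrays were within 1.5 times of each other. Pim2 was high on array 2 alone, with 143, 483 and 156. Osm, a secreted cytokine of the IL-6 family, was high on array 3 alone, with 313, 255 and 1875. Socs3, the inhibitor best known for acting on the IL-6 receptor chain, was the most extreme of the list with 234, 214 and 4776. All 3 Socs3 probe sets had that shape, the dimmest reading 66.2, 67.2 and 1381. Socs1 (39.9, 25.7 and 31.8) and Pim3 (14.2, 11.8 and 15.8) stayed under the limit.

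The promoters of these genes can be set beside the values, because STAT5 binds palindromes of the form TTCNNNGAA, which read the same on both strands. RefSeq windows of 300 bases, from 250 before to 50 after a gene's start (assembly GRCm38.p6), were matched for 17 of the 21 measured list members, and 3 held such a palindrome: Cish, Csf2rb2 and Socs3. Of all 32851 windows, from 27025 genes, 8.30% held one. A list member was counted if any of its windows held one. By gene, with the first window listed, the share was 7.29% of the 14452 array genes with a window. A match describes letters and not a bound site, and a window without one says nothing about the gene. The 3 windows are printed because they hold the palindrome, together with that of Zfp36, an mRNA decay factor with the same array pattern as Socs3 (103, 76.0 and 698). Capitals mark TTCNNNGAA and, in Zfp36, also a CArG box, the site of serum response factor, which 1.63% of all windows held. The windows lie at chr9:107296409-107296708 on the plus strand (Cish), chr11:117969317-117969616 on the minus strand (Socs3), chr15:78305672-78305971 on the minus strand (Csf2rb2) and chr7:28379179-28379478 on the minus strand (Zfp36), each across the gene's start.
Cish: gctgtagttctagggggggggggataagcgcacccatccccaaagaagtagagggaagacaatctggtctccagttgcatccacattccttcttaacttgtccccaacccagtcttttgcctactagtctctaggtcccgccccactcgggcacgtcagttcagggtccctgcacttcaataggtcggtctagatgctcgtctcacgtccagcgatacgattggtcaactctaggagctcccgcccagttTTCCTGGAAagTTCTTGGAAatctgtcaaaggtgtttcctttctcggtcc
Socs3: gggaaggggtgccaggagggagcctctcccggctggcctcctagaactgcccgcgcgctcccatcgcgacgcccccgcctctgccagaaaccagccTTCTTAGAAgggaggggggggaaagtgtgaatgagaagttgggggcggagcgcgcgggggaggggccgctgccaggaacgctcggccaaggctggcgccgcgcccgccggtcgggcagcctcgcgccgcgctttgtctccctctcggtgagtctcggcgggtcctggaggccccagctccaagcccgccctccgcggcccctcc
Csf2rb2: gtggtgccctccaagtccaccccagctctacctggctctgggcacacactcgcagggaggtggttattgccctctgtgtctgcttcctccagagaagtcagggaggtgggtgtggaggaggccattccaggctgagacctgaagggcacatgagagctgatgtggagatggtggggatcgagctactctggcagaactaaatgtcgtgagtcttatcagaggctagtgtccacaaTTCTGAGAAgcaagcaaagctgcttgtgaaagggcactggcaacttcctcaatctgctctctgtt
Zfp36: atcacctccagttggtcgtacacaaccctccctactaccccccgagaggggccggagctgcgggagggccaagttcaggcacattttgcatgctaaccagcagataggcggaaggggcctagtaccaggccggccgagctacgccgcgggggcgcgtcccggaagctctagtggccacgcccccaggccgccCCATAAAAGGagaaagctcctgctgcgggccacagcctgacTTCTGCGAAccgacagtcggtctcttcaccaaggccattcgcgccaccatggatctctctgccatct

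In the Cish window there are 2 palindromes, starting at bases 251 and 262, which puts both just after the start site. The one of Csf2rb2 begins at base 236 and that of Socs3 at base 97. In Zfp36 the CArG box begins at base 193 and the palindrome at base 234. Cish, with its 2 copies, was steady over the 3 arrays, Csf2rb2 was low on array 2, and Socs3 and Zfp36 were high on array 3. Of the 25 genes at least 2-fold above both others on array 3, 20 had a window, taking the first listed. A CArG box was held by 1 of these 20 (5%) and TTCNNNGAA by 4 (20%), shares of a small number. In all 14452 array genes with a window the shares were 1.36% and 7.29%. Whether either motif goes with the array 3 pattern was not tested.

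Other class I cytokine receptors were mostly dim. Of 22 measured, 4 were expressed (18.2%) and 11 were near the floor. The expressed ones were Crlf2, the chain for thymic stromal lymphopoietin (985, 1014 and 616), the IL-2 receptor alpha chain Il2ra (411, 219 and 278), the IL-4 receptor chain Il4ra (256.4, 177 and 136) and Il15ra (153, 201 and 184). Il2rb, the partner through which IL-2 and IL-15 signal, read 4.40, 4.85 and 10.8. Il7r, with which Crlf2 pairs, read 8.26, 1.85 and 10.6. For Crlf2, Il2ra and Il15ra the partner chain was thus near the floor. The erythropoietin receptor Epor passed on array 1 alone with 67.6, 40.3 and 39.8. Csf3r, the receptor for granulocyte colony-stimulating factor, read 4.54, 10.8 and 10.3, and Il6st, the signalling chain of the IL-6 family to which Osm belongs, read 11.6, 2.43 and 3.04, below 50 in all 4 of its probe sets. The dimmest were Il9r (0.828 ± 0.269) and Il31ra (4.14 ± 4.80).

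Receptor tyrosine kinases were the list of receptors with the smallest expressed share: 2 of 29 (6.9%), with 13 near the floor. Igf1r, for insulin-like growth factor 1, stood at 1029.5, 1103 and 773, and the insulin receptor Insr at 97.2, 117 and 63.9. Insr passed on 1 of its 3 probe sets, and 2 were near the floor. Next came Axl with 76.8, 64.6 and 48.6 and Tie1 with 45.7, 85.0 and 21.8, each under 50 on at least 1 array. Kinases known from marrow progenitors and macrophages were low. Kit, the stem cell factor receptor, read 13.96, 3.12 and 2.14, and its other probe set was near the floor too. Flt3 read 7.45, 2.74 and 5.92, and Csf1r, the receptor of macrophage growth, read 25.1, 28.0 and 18.0. The list ended with Met (0.908 ± 1.12) and Epha2 (1.32 ± 0.646).

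Over all receptor and adaptor lists 33 of 167 genes were expressed (19.8%, against 40.8% of all genes). In the interferon and class II list 4 of 11 were (36.4%, near the share of all genes): Ifnar2 at 293 ± 54.5, Ifnar1 at 69.3 ± 9.61, Ifngr1 at 109 ± 22.05 and Il10rb at 117 ± 2.09. Thus both type I interferon chains passed, while Ifngr2, the second chain for interferon gamma, read 33.5, 52.7 and 54.2 and missed on array 1. The coagulation receptor F3 (0.558 ± 0.134) and Il10ra, the ligand-binding chain for IL-10 (1.07 ± 0.341), ended that list. The IL-1 and IL-17 families also gave 4 of 11, with Il18rap (295, 384 and 228), Il18r1 (82.4, 106 and 98.7), Il17ra (241, 193 and 268) and Sigirr (118, 143 and 115), so both chains of the IL-18 receptor passed. Dimmest there were Il1r1 with 4.16, 2.72 and 3.23 and Il17rc with 5.39, 0.860 and 1.72.

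The TNF receptor list had 4 of 20 expressed (20%, against 40.8% of all genes), with Tnfrsf13b, known as TACI and best studied on B cells, at 577, 791 and 694. Tnfrsf21 read 225 ± 58.0, Tnfrsf1a, the main receptor for TNF, 178 ± 45.0, and Ltbr, for lymphotoxin, 76.2 ± 19.1. Fas, the death receptor, read 6.35, 11.2 and 8.96. The lymphocyte receptors Tnfrsf13c (4.598 ± 5.83) and Cd27 (5.52 ± 3.76) were dimmest. The TGF-beta list had 4 of 14 (28.6%), namely the type I and II receptors Tgfbr1 (396 ± 39.6) and Tgfbr2 (251 ± 64.6), Bmpr2 (298 ± 86.9) and Acvr1b (121 ± 22.00). All 4 passed on 1 probe set alone, and Tgfbr1 and Tgfbr2 each had 2 others near the floor. The co-receptor Tgfbr3 (2.00 ± 1.55) and Bmpr1b (3.34 ± 1.92) closed the list. Among chemokine and chemoattractant receptors 4 of 24 passed (16.7%): the prostaglandin receptor Ptger4 (258 ± 32.8), C3ar1 for complement (251 ± 53.8), the leukotriene B4 receptor Ltb4r1 (142 ± 47.2) and Cxcr4, which holds progenitors in the marrow (102, 93.5 and 68.2). Cxcr2, the chemokine receptor of mature neutrophils, read 7.36, 19.97 and 3.58, and the lymphocyte receptors Ccr7 and Ccr8 were dimmest at 1.01 ± 0.581 and 1.68 ± 1.57.

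Of the Toll-like receptor list 4 of 19 were expressed (21.1%, against 40.8% of all genes). All 4 were signalling proteins inside the cell: Irak1 (771 ± 51.1), Myd88 (453 ± 40.1), Tirap (328 ± 36.9) and Traf6 (81.2 ± 13.8). Traf6 passed on 1 of its 5 probe sets, and 3 were near the floor. The Toll-like receptors themselves missed the limit, with Tlr2 at 47.4, 45.9 and 39.2, Tlr4 at 33.8, 52.4 and 36.3, and Tlr3 (2.13 ± 3.24) and Tlr5 (2.48 ± 0.928) dimmest. Cd14, the lipopolysaccharide co-receptor, was low on array 2 with 129, 46.4 and 149.7. In the Notch, Wnt and Hedgehog list 3 of 17 passed (17.6%): Ptch1, the Hedgehog receptor (369 ± 13.97), Notch2 (316 ± 38.5) and Lrp6 (171 ± 34.0). All 3 passed on 1 probe set alone, and Ptch1 had 2 others near the floor. Fzd4 missed on array 3 with 56.5, 108 and 44.6, Notch1 read 38.0, 47.9 and 29.6, and the Wnt receptors Fzd8 (2.07 ± 1.79) and Fzd5 (4.79 ± 0.873) were dimmest. Without array 3 the count was 5.

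**Figure D2:**
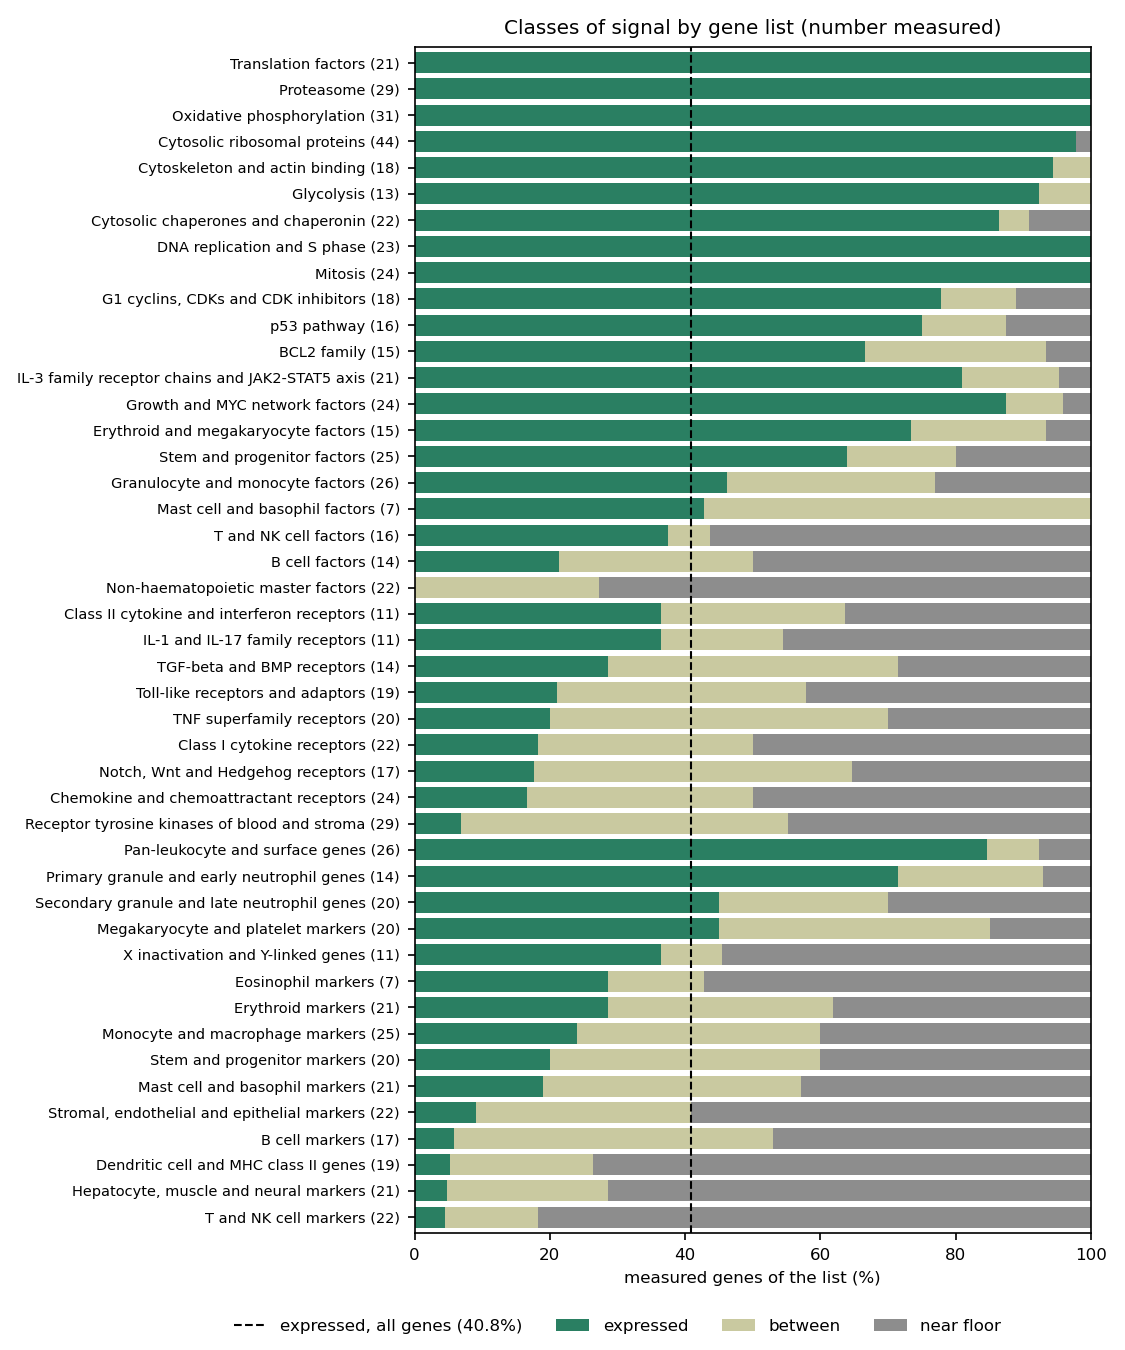
Share of the measured genes of each list (percent, number measured in brackets) that were expressed, between the classes or near the floor over the 3 arrays. The dashed line is the expressed share of all genes (40.8%): machinery of growth lies at or near 100%, the IL-3 axis at 81.0%, class I cytokine receptors at 18.2%, and B cell, T cell and stromal markers under 10%.

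Of the listed transcription factors 72 of 149 were expressed, or 48.3%, against 40.8% of all genes. The stem and progenitor list had 16 of 25 expressed (64%), with a median of 307. Mecom, which holds the proto-oncogene Evi1, read 3308, 4279.7 and 3178. That value rests on 1 probe set, since the other 2 of this gene had means of 25.1 and 5.92. Myb, needed by dividing progenitors, read 2431, 1978 and 1936, and Cbfb, the partner of the RUNX proteins, read 1447, 1372 and 1772. The members of the complex around SCL were all expressed: Tal1 (963, 963 and 945), its relative Lyl1 (983, 1119 and 1193), the bridge Lmo2 (756, 1152 and 839) and Ldb1 (140.1, 182 and 99.2). The ETS factors Fli1 (745 ± 124) and Erg (425 ± 129), and Gata2 (861, 697 and 757), Hhex (526 ± 119.5), Etv6 (423 ± 31.4), Bmi1 (418 ± 39.5), Gfi1b (307 ± 43.9) and Runx1 (121, 185 and 102) passed as well. The homeobox genes of leukaemia and stem cells did not: Hoxa9 read 4.80, 13.6 and 16.5, its cofactor Meis1 17.2, 12.9 and 5.08, Hoxb4 10.9, 8.31 and 2.56 and Hoxa10 6.83, 3.86 and 3.91. Hlf, a factor of dormant stem cells, read 9.44, 3.98 and 1.88.

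The erythroid and megakaryocyte list had 11 of 15 expressed (73.3%, against 40.8% of all genes). Cited2, a transcriptional co-regulator, stood at 2049 ± 218, Nfe2, which drives platelet formation, at 951, 1079 and 695, and Gata1, the master factor of red cells, megakaryocytes, eosinophils and mast cells, at 639, 515 and 711. Nfe2l2, the oxidative stress relative of Nfe2, read 429 ± 43.6. The GATA1 cofactor Zfpm1 read 346, 396 and 406, and the NFE2 partners Mafg and Mafk read 394 ± 72.1 and 124 ± 4.69. Klf1, the factor of red cell maturation, missed on array 2 with 70.2, 32.3 and 61.97. Klf3, which opposes it, read 55.4, 38.7 and 26.9, and Bcl11a, the repressor of fetal globin, 7.84, 4.25 and 5.65. Gata1 and its partners were thus expressed while Klf1 missed on 1 array.

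The granulocyte and monocyte list split. Expressed were 12 of 26, or 46.2%, near the 40.8% of all genes. Among them were Jund (1283, 1053 and 2140.2), Cebpb (709.6, 975 and 788), Cebpd (159, 167 and 247), Spi1, the myeloid master factor PU.1 (123, 164 and 141), and the immediate early gene Egr1 (599, 257 and 1311). Cebpa, needed for the first step to granulocytes, missed on array 3 with 93.9, 66.4 and 24.5. Gfi1, which acts after it in neutrophil maturation, read 6.45, 0.536 and 3.50, and Irf8, which directs monocytes, read 7.45, 0.799 and 2.03. Jun, the AP-1 partner of Fos, read 6.00, 4.24 and 3.07 on the same arrays on which Fos read 47.2, 53.5 and 1378, so array 3, which was high for Fos, was not high for Jun.

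Of the 7 mast cell and basophil factors 3 were expressed, or 42.9%, near the 40.8% of all genes. They were Ikzf2, the Ikaros family member Helios (1729.6, 1435 and 1546), Stat6 (191, 123 and 123) and Tfe3 (111, 108 and 74.7). Mitf, the mast cell factor, was under the limit with 31.5, 49.5 and 40.7, its relative Tfeb read 13.2, 5.37 and 18.3 and Ikzf1, Ikaros itself, 14.9, 4.03 and 8.95. The B cell list had 3 of 14, and these are widely used genes: Xbp1, which serves the unfolded protein response (3938, 4179 and 4162), and the E proteins Tcf3 (193 ± 19.0) and Tcf4 (245 ± 38.6). Bcl6, of germinal centres, read 28.5, 31.9 and 23.3. Pax5 (14.1, 9.05 and 7.14) and Ebf1 (7.18, 3.17 and 0.470), which define the lineage, stayed low, as did Spib (1.82, 3.71 and 3.18) and Pou2af1 (0.211, 0.676 and 2.03). The T and NK list had 6 of 16, or 37.5%, also near the share of all genes. It was led by Zbtb16 (372 ± 46.2), Nfatc1 (242 ± 33.4), Id2 (103, 103 and 198) and Nfatc2 (93.7 ± 24.3). Gata3 (2.99, 0.692 and 5.22), Tbx21 (3.56, 0.777 and 1.20) and Bcl11b (3.39, 10.5 and 23.9), factors of T cell fate, were under the limit. Others of that kind passed, namely Runx3 (90.0, 126 and 64.8) and Zbtb7b (61.5, 73.0 and 52.5). The inhibitor Id3 read 1.61, 4.64 and 1.07.

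Factors of growth and of the MYC network were expressed in 21 of 24 cases (87.5%, against 40.8% of all genes). Mycn gave the highest signal of the listed factors, 4673, 4755 and 6465, on 1 of its 3 probe sets. The second read 269, 576 and 649.6 and the third 36.6, 60.8 and 34.2, so the size of its signal depends on the probe set. Myc read 974, 997 and 496, lowest on array 3, where Mycn was highest. Atf4, of the amino acid response, stood at 1843 ± 158, Yy1 at 1533 ± 149 and Hif1a at 1235 ± 115. Mycl (9.68, 5.75 and 1.68) and the MYC antagonist Mxd1 (17.5, 18.5 and 15.9) were dimmest.

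**Figure D3:**
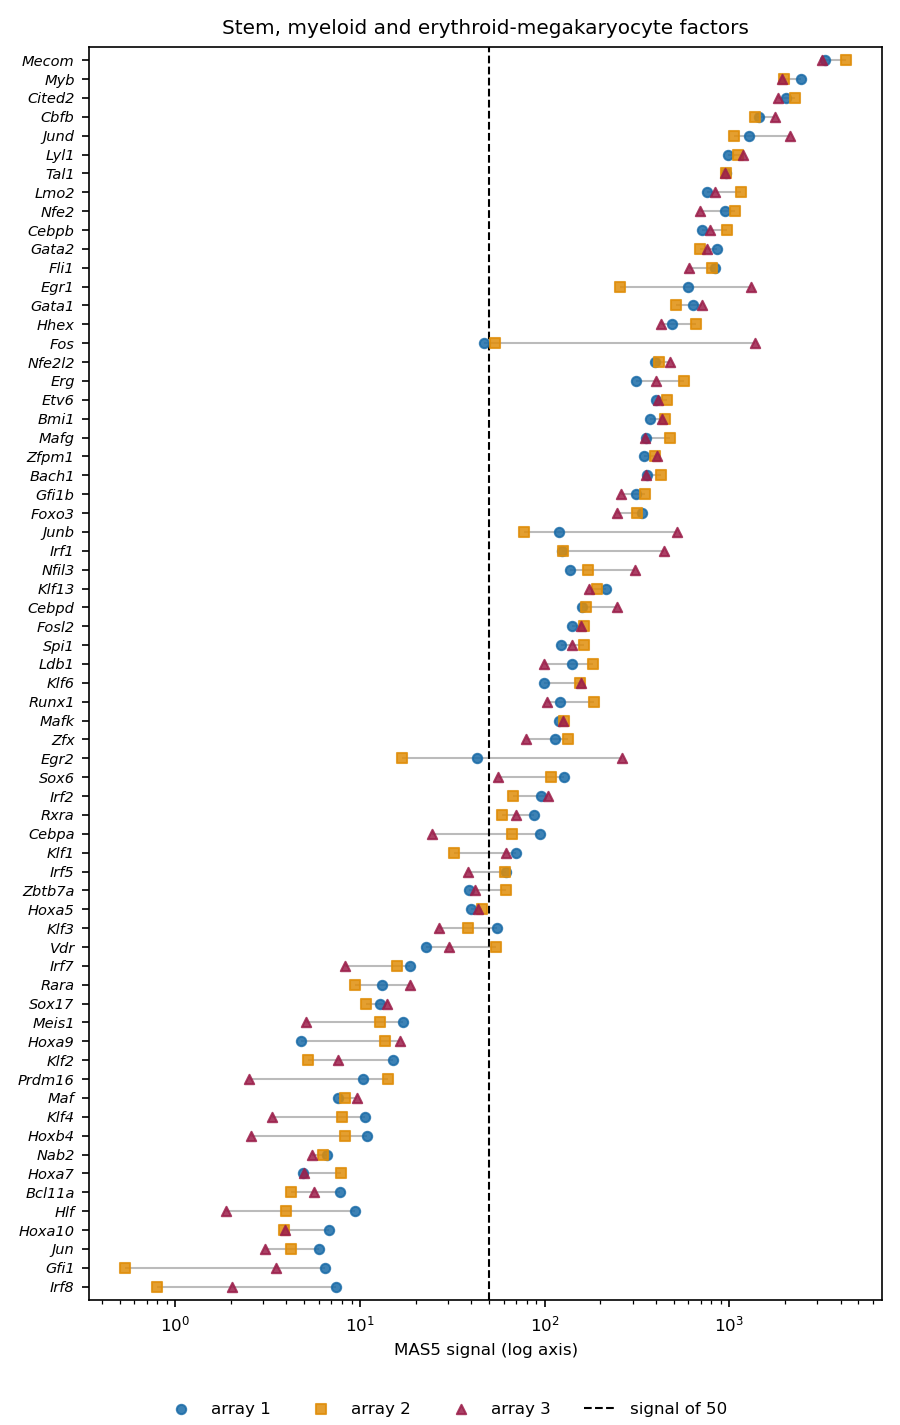
MAS5 signals (log axis) of the measured transcription factors of the stem, granulocyte and monocyte, and erythroid and megakaryocyte lists, 1 symbol per array, ordered by mean. The dashed line marks 50: Mecom, Myb, Tal1 and Gata1 lie above it on every array and close together, Fos, Egr2 and Junb have array 3 far to the right, and Hoxa9, Meis1, Gfi1 and Irf8 lie left of it on every array.

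Of the pan-leukocyte and surface genes 22 of 26 were expressed (84.6%, against 40.8% of all genes). The actin regulator Coro1a read 2768 ± 264, Cd47 2718 ± 407, the tetraspanin Cd53 2289.9 ± 673, Laptm5 2190.1 ± 134 and CD45, Ptprc, 1367, 1642 and 1376. The integrins Itgb2 (937 ± 101), Itga4 (747 ± 132) and Itgal (379 ± 78.3) were expressed, and Itgam, the CD11b chain that rises in mature granulocytes and monocytes, read 103, 179.8 and 59.9. Itgax, the CD11c chain, read 12.5, 9.09 and 8.72 and Cd24a 1.30, 4.69 and 0.882. The list counts surface genes not particular to blood cells, such as Cd47 and Cd9, so its share is not a measure of blood origin.

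Of the stem and progenitor markers 4 of 20 were expressed (20%, against 40.8% of all genes): Cdk6, Cd48 (1573, 1223 and 2289), Angpt1 (781 ± 100.1) and Slamf1, or CD150 (279, 245 and 458). Cd34, the classical progenitor antigen, read 6.78, 0.917 and 7.11, Thy1 read 0.759, 6.24 and 1.88 and Procr, a marker of long-term stem cells, 1.23, 0.938 and 1.93. Like Kit and Flt3, these lay at or near the floor.

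Neutrophil genes were described by the stage at which they are made. Of the primary granule and early list 10 of 14 were expressed, or 71.4% against 40.8% of all genes, with a median of 877. That share counts members not particular to granules, such as Calr, while Elane, Ctsg and Hp did not pass. It is therefore not a measure of granule proteins alone. The proteoglycan Srgn, which packs granule contents, read 4749 ± 945, the chaperone Calr 3510.3 ± 107, the protease activator Ctsc 2626 ± 209.5 and Igfbp4 2558 ± 244. Prtn3, proteinase 3, read 1063, 1692 and 568, and Ms4a3, a marker of granulocyte and monocyte progenitors, 818, 769.6 and 349.8. Mpo, the peroxidase that defines primary granules, was expressed but spread, with 345, 132 and 60.0, and Ctsg, cathepsin G, fell below the limit on array 3, with 263, 90.5 and 31.1. Elane, the elastase stored with them, read 1.80, 3.57 and 1.06 on its only probe set, and haptoglobin, Hp, 21.5, 13.8 and 4.63.

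Of the secondary granule and late list 9 of 20 passed, or 45.0%, near the share of all genes, with a median of 82.1. Cyba, a subunit of the oxidase that many cells make, read 1299 ± 85.7, and Ncf1, another, 803 ± 97.8. Its catalytic partner Cybb read 9.99, 5.04 and 7.11. Ngp, a granule protein, read 2511, 527 and 811, and of the calprotectin genes S100a8 read 696, 94.2 and 164 and S100a9 read 503, 87.7 and 162. Ltf, lactoferrin, read 92.0, 30.1 and 29.0, and Lcn2 84.1, 229 and 28.3. Also expressed were the lysozyme Lyz2 (447, 518 and 366), the oxidase subunit Ncf4 (458, 378 and 482) and Padi4, which citrullinates histones (419, 480.2 and 381). Mmp9 (13.7, 33.4 and 16.5) and Stfa2l1 (49.2, 11.7 and 24.9) lay between the classes, and 6 of the 20 were near the floor, among them Camp (1.60, 2.20 and 2.34), Mmp8 (6.49, 3.32 and 8.37), Cd177 (5.22, 7.20 and 4.61) and Chil3 (0.711, 0.205 and 0.610). For Ngp, S100a8, S100a9 and Ltf array 1 stood at least 2-fold above both other arrays on the log2(signal + 16) scale.

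Monocyte and macrophage markers were expressed in 6 of 25 cases (24%, against 40.8% of all genes), with a median of 13.6. The lysozyme Lyz1 read 912 ± 252, the lysosomal protease Ctsd 457 ± 83.0, Cd68 232, 518 and 301, Fcgr1 125, 183 and 253 and the transglutaminase subunit F13a1 183 ± 12.2. Adgre1, which encodes F4/80, read 203, 66.4 and 117. The macrophage markers C1qa (1.08, 0.971 and 0.513), C1qc (0.752, 0.753 and 0.538), Mpeg1 (7.08, 4.29 and 4.28) and Marco (3.26, 2.16 and 1.26) were near the floor. Of 7 eosinophil markers 2 passed (28.6%). Epx, eosinophil peroxidase, read 1055, 104 and 127, high on array 1 alone, and Siglecf read 279, 133 and 234. Prg2, the major basic protein, read 36.0, 11.0 and 23.3, Alox15, a lipoxygenase, 7.90, 5.10 and 8.82, the second basic protein gene Prg3 2.22, 2.63 and 1.34 and Ccr3, the eosinophil chemokine receptor, 4.44, 0.533 and 0.752.

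Among mast cell and basophil markers 4 of 21 passed (19.0%, against 40.8% of all genes). The monoamine transporter Slc18a2 read 1772, 1792 and 1724, the IgE receptor gamma chain Fcer1g 1389, 1535 and 1483, Gata2 as above, and Ndst2, which modifies heparin, 128, 127 and 81.9. Fcer1g is shared with other Fc receptors. The alpha and beta chains of the IgE receptor, Fcer1a (30.1, 8.09 and 7.73) and Ms4a2 (27.4, 17.4 and 5.45), the protease genes Cpa3 (53.9, 13.2 and 14.6), Mcpt2 (2.06 ± 0.308) and Mcpt4 (1.21, 0.750 and 0.320), and Hdc, which makes histamine (21.9, 1.57 and 7.92), did not pass. Mcpt8, a basophil protease, read 70.2, 15.2 and 13.99.

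Erythroid markers were expressed in 6 of 21 cases (28.6%, against 40.8% of all genes). Tfrc, the transferrin receptor of all dividing cells, read 2036 ± 566, the haem synthesis enzyme Urod 786 ± 60.6, Hemgn 369, 609.8 and 389.7 and Gypc, glycophorin C, 338, 338 and 342, one of the smallest spreads on the arrays. Of the 21 genes 8 were near the floor, among them Hba-a1 at 4.02, 1.23 and 2.04, Hbb-y at 0.929, 0.359 and 0.656, Alas2 at 1.54, 0.575 and 1.12, the haem-binding gene Hebp1 at 0.529, 1.54 and 0.595 and the band 3 gene Slc4a1 at 0.877, 0.699 and 6.28. Between the classes lay the membrane skeleton genes Epb42 (39.5, 35.1 and 28.9) and Ank1 (29.0, 18.9 and 22.5), and Rhag, which passed on arrays 1 and 3 (105, 32.4 and 89.0).

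Of the megakaryocyte markers 9 of 20 were expressed, or 45.0%, near the 40.8% of all genes. F2r, a thrombin receptor, was the brightest of the list with 4726, 4384 and 5176, but its signal is not taken as a sign of the lineage. Itga2b, which encodes CD41, read 1280.4, 1595 and 946. Cd9 read 680.2 ± 163, Nbeal2, needed for alpha granules, 271 ± 43.3, the platelet tubulin Tubb1 157, 207 and 121, and the glycoproteins Gp9 105, 204 and 94.8 and Gp5 121, 162 and 115. Vwf was high on array 2 alone, with 33.9, 242 and 21.6. Pf4, platelet factor 4, read 24.1, 22.2 and 18.0, the ADP receptor P2ry12 2.49, 5.99 and 3.77 and Clec1b 7.33, 1.93 and 0.551. Itga2b, Gp9, Gp5, Tubb1 and Cd9 were each highest on array 2, as were 9 of the 11 listed genes with a mean of at least 50. Of all 7810 genes with such a mean 33.5% were highest on array 2, and of those with a mean between 50 and 200, 40.3%.

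Lymphoid, dendritic and tissue markers were nearly all under the limit. For B cells 1 of 17 passed, the kinase Btk (565, 445 and 493), which myeloid cells use too. Ighm read 43.3 ± 5.005, Cd72 23.0 ± 7.49 and the surrogate light chain Igll1 6.69, 32.0 and 20.6. Cd79a, of the antigen receptor, read 3.19, 6.71 and 1.31, and the recombinase genes Rag1 and Rag2 read 0.176 ± 0.060 and 1.95 ± 1.56. For T and NK cells 1 of 22 passed, the adaptor Lat (155, 106 and 142), which mast cells and megakaryocytes also make, while Cd3e read 2.89, 2.13 and 4.98 and Cd2 0.392, 1.19 and 0.377. Zap70, a kinase of T cells, missed on array 1 alone (35.3, 123 and 71.0), so the count was 2 without it. The killer cell genes Prf1 and Ncr1 read 11.8, 24.6 and 20.6 and 1.67 ± 1.39, and Cd8a read 12.97 ± 2.83. Dendritic and MHC class II genes gave 1 of 19, the interferon-inducible Bst2 (156 ± 21.5), with the invariant chain Cd74 at 34.6, 32.2 and 31.3, H2-Ob at 12.7 ± 10.5, Siglech of plasmacytoid cells at 11.4 ± 1.83 and H2-Ab1 at 0.865, 1.61 and 5.10. Stromal, endothelial and epithelial markers gave 2 of 22, Pecam1 (259, 295 and 111), which leukocytes carry, and Acta2 (82.8, 72.8 and 94.4), with Epcam of epithelia at 29.6, 39.2 and 36.0, the collagen gene Col1a1 at 9.94, 3.44 and 0.823 and Tagln of smooth muscle at 0.683, 2.67 and 0.729. Mbp (212 ± 23.2) was the 1 of 21 hepatocyte, muscle and neural markers to pass, with Ckm (27.3, 40.7 and 27.3), Des (25.6, 26.5 and 11.4), Acta1 (16.1, 23.2 and 19.7) and Myh1 (2.40 ± 0.437) of muscle, Alb of liver (6.02, 2.44 and 7.95) and Snap25 of neurons (2.15, 4.17 and 0.917) under the limit. The members near the floor were 8 of 17 for B cells, 18 of 22 for T and NK cells, 14 of 19 for dendritic and MHC class II genes, 13 of 22 for stromal and 15 of 21 for hepatocyte, muscle and neural markers, while Cd74, Epcam, Ckm and Ighm lay between the classes.

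The survival genes of the BCL2 family were expressed in 10 of 15 cases (66.7%, against 40.8% of all genes). Mcl1, the short-lived protector that cytokines maintain, read 1514, 1430.0 and 2571, Bcl2 itself 473 ± 57.1 and Bcl2l1, which encodes BCL-XL, 180.3, 174 and 171. The killers Bid (652 ± 46.3), Bnip3 (488, 414 and 214), Bak1 (159 ± 19.7) and Bad (146 ± 30.9) were expressed in the presence of IL-3. Bcl2l11, which encodes BIM, straddled the limit with 67.1, 55.9 and 47.9, and Bmf (13.49, 15.3 and 8.40) and Bik (2.12, 1.52 and 5.74) lay under it. Of the p53 pathway 12 of 16 passed (75%), led by Ccng1 (1886, 1465 and 2428), Cdkn1a, Mdm4 (433 ± 82.1) and Sesn1 (408 ± 61.7). Mdm2, the p53 antagonist and target, read 245 ± 38.3, and Perp 1.03, 5.59 and 5.14.

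Replicates were close for nearly all genes. Among the 7810 genes with a mean of at least 50, the SD of log2(signal + 16) over the 3 arrays had a median of 0.18, with quartiles of 0.11 and 0.26 and a 95th percentile of 0.45. Without array 3 the median was 0.11, but an SD over fewer arrays is not directly comparable. The SD over all 3 arrays was under 0.5 for 96.6% of these genes, and the median coefficient of variation was 13.2%. The median SD was 0.19 for genes with a mean between 50 and 100, 0.16 between 500 and 1000 and 0.20 above 2000. The narrowest was Igbp1, with 657, 655 and 655, followed by Nap1l4 with 613, 616 and 613.

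A spread of at least 1 on that scale was seen in 32 genes, or 0.41%. It was seen in 57 when array 1 was left out, where the SD is over fewer arrays. Fos led with 47.2, 53.5 and 1378 and an SD of 2.54, then Socs3 with 2.50, Gadd45g with 1.80 (53.2, 78.7 and 672) and Epx with 1.76. Next were Nfkbiz, an atypical IκB protein (144, 185 and 1224), Zfp36, Egr2 (43.0, 16.8 and 262), Osm and Vwf. The other genes of the 20 widest were S100a8, Txnip (576, 1322 and 179.6), Junb (119, 77.3 and 521), Btg2 (97.4, 108 and 568), Pde4b (21.3, 15.9 and 148), Ctsg, 2610316D01Rik (90.5, 5.97 and 81.9), Lcn2, the nuclear RNA Malat1 (422, 292 and 1521), the metal transporter Slc39a8 (470.0, 83.9 and 311) and S100a9. In 16 of the 32 genes array 3 was high by at least 2-fold against both others on this scale, in 7 array 1 was high, in 3 array 2 was high, in 5 array 2 was low and in 5 array 3 was low. A gene can count in more than 1 of these groups.

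**Figure D4:**
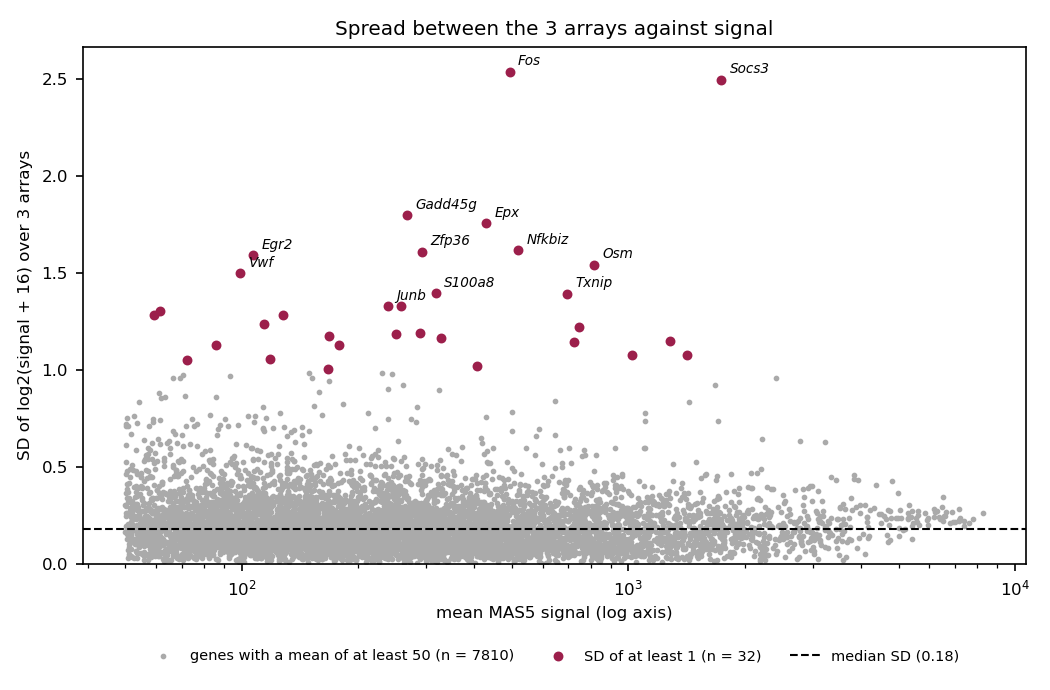
SD of log2(signal + 16) over the 3 arrays against mean MAS5 signal (log axis) for the 7810 genes with a mean of at least 50, with the 32 genes at or above 1 in red and the 12 widest named. The dashed line is the median of 0.18, and the bulk of genes lies under 0.5 at every signal.

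Over all 7810 genes, array 3 was high in 25 (0.32%). Many of them are immediate early genes, which cells transcribe within minutes of a stimulus without new protein: Fos, Egr1 and Egr2, Junb, Ier2 (1050.4, 947 and 3029), Ier3 (750.5, 743 and 2762), Dusp1, a phosphatase that ends MAPK signalling (195, 245 and 774), Btg2, Zfp36, Maff (45.4, 29.2 and 182), Csrnp1 (91.7, 83.0 and 328) and Irf1 (123, 126 and 443). On a log scale arrays 1 and 2 were nearer to each other than to array 3 for each of these genes except Egr1, which was low on array 2 as well as high on array 3. A list of 48 immediate early genes, drawn up after these values were seen, had 26 expressed (54.2%, against 40.8% of all genes). Array 3 was high in 16 of its 31 genes with a mean of at least 50. This list was chosen on the same arrays and is no separate evidence. Not all members followed: Myc (974, 997 and 496), Dusp6 (588, 777 and 352) and Klf10 (77.6, 137 and 44.9) were lowest on array 3, and Fosb (5.21, 3.80 and 11.9), Nr4a1 (21.4, 10.3 and 11.6) and Atf3 (5.48, 2.25 and 5.25) stayed low on every array.

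Array 1 was high in 10 genes (0.128%). These were Epx, S100a8, S100a9, Ngp, Ctsg, Mpo and Ltf, all of granules or of maturing granulocytes, together with Rhox5 (152, 38.5 and 26.8), Ldhc (139, 38.9 and 29.3) and Arsb (191, 67.0 and 83.3). Among genes with a mean of at least 50, array 1 was high in 2 of 12 of the primary granule list and 4 of 11 of the secondary list. Prtn3 was highest on array 2, so the pattern did not extend over the granule lists as a whole. Elane and Camp were at the floor on array 1 as on the others, where a weak probe set could hide a rise. With bulk RNA, more cells of a type and more RNA per cell cannot be told apart. Array 1 was low in 2 genes (0.0256%), the chloride transporter Clcn5 (133, 383 and 306) and the metallothionein Mt2 (1573, 3362 and 3403).

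Array 2 was high in 21 genes (0.269%). Among them were Ddit3 (81.6, 317 and 107), Trib3 (109, 279 and 95.6) and Nupr1 (25.2, 96.9 and 35.9), all known from the ATF4 stress response, Txnip, Cirbp, which is induced by mild cold (238, 572 and 158), Ndrg1 (118, 265 and 77.3), Anxa5 (1099, 2805 and 1213), Pim2, Lcn2 and Vwf. Atf4 itself read 1662, 1912 and 1955. Array 2 was low in 15 genes (0.192%), including Csf2rb, Csf2rb2, the protease inhibitors Serpinb1a (2332, 1027 and 3862) and Cst7 (276, 45.4 and 184), Ctla2a (1347, 359 and 1362), Slc39a8, Cd14, Ccr1 (94.1, 29.9 and 77.3), the chaperone Hsph1 (558, 241 and 705), Rhag (105, 32.4 and 89.0) and Egr1. Both IL-3 receptor beta chains were thus in this group, while Il3ra was highest on array 2 and Cish did not drop there.

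Array 3 was low in 29 genes (0.371%) and in 14 when the arrays were given the same distribution of signals. They included Txnip, Tmem176b (307, 572 and 103), the noncoding RNAs Neat1 (217, 422 and 96.6) and Snhg7 (137, 184 and 34.3), Sesn2 (125, 142 and 44.0), Pdk1 (472, 603 and 211), Cebpa, Ms4a3, Anxa1 (736, 716 and 306) and Pecam1. Malat1, another abundant nuclear RNA, went the other way. The part of the brighter upper end of array 3, and of RNA quality, in these patterns was not tested.

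**Figure D5:**
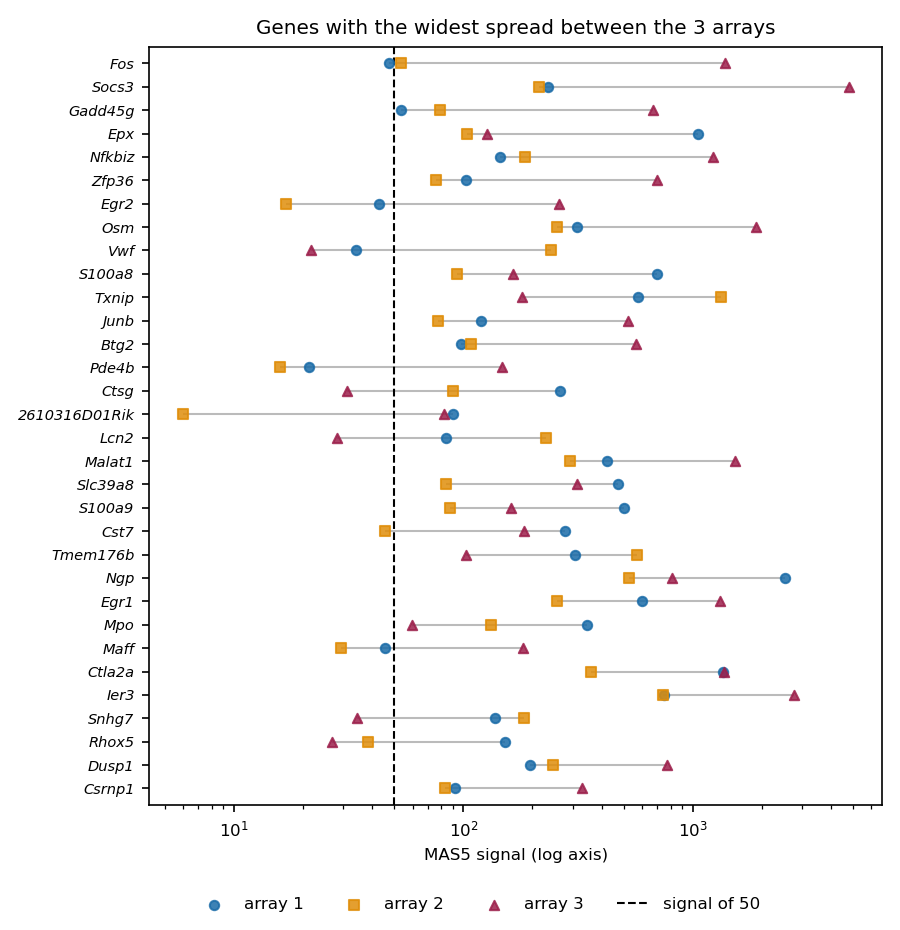
MAS5 signals (log axis) on the 3 arrays for the 32 genes with an SD of log2(signal + 16) of at least 1, ordered by that SD. Fos, Socs3, Nfkbiz and Osm have array 3 alone on the right, Epx, S100a8, Ngp and Mpo array 1, and Vwf and Txnip array 2.

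Promoter composition, which the classes did not use, was set beside them as a description with no test. RefSeq windows were found for 14452 of the 18193 genes, taking the first window listed for a gene. Windows of expressed genes had a median GC content of 61.3% and those of genes near the floor 54.0%. The observed number of CpG pairs over the number from base composition was 0.814 against 0.390. The GC box GGGCGG was found on either strand in 67.9% of expressed and 38.0% of floor windows, and the ETS-type motif CCGGAAG in 22.9% and 4.49%. TATAAA ran the other way, with 6.40% and 14.3%, and TTCNNNGAA differed little, with 6.65% and 7.99%. A GC box is itself rich in G and C, so its share goes with base composition. Among the 28 widely spread genes with a window, 9 held TATAAA (32.1%) and 5 held TTCNNNGAA (17.9%), shares of a small number. In all 14452 genes those shares were 9.87% and 7.29%.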

How the data were processed

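Messenger RNA from 3 replicates of 32D-EV cells was measured on 1-colour Affymetrix arrays, from 6 ug of total RNA per the labels' protocols. The deposited values are MAS5 signal intensities on a linear scale. The submitters' processing notes name MAS5 without a version. MAS5 summarises matched and mismatched probes, and its low signals are noisy. Detection calls were not used. Groups and replicate numbers came from the sample titles, and no other array entered any value.

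Of 45101 probe sets, 64 controls were left out. In a 2016 platform annotation 34945 carry 1 symbol, 932 several and 9160 none in the table used. Of the first, 34741 matched RefSeq (GRCm38.p6) by Entrez ID, and 0 symbols changed. Where an expressed gene had over 1 probe set (4922 genes), all were expressed in 1451 and at least 1 was near the floor in 1348. Spread was taken on log2(signal + 16), without further normalization. An array counted as high or low where it lay at least 1 log2 unit, or 2-fold, from both others. Scripts were tested on simulated data (Python 3.11.15, numpy 2.4.6, pandas 2.3.3).

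The text names the 20 brightest genes, the 4 brightest and, where any were not expressed, the 2 dimmest of each of 45 lists, all members of the IL-3 list, the 20 widest spreads and the genes beside the limit. Other members are named for a defining role, and genes on which 1 array stood apart were named after their values were seen. The lists were chosen with earlier results of these data known. Alternatives were limits of 25 and 100, a mean of at least 50, 2 of 3 arrays, the median over probe sets, plain _at probe sets, quantile normalization, pseudocounts of 1 and 64, and leaving out each array.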

Additional observations from a re-analysis of the deposited data

How the results depend on the processing

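The number of expressed genes stayed between 5862 (limit of 100) and 8474 (limit of 25), with 6137 from the median over a gene's probe sets, 6033 from plain _at probe sets and 7461 to 7707 when 1 array was left out. The median SD was 0.107 to 0.182 with 1 array left out, the lowest without array 3, and 0.144 to 0.191 under the other settings. With 1 array left out the SD is over fewer arrays, so those SDs and counts are not directly comparable with the others. The count of 32 widely spread genes moved to 50 with a pseudocount of 1, which held all 32, and to 18 with a pseudocount of 64. It was 22 to 57 with 1 array left out, 57 without array 1, and 24, 25 and 9 of the 32 were still wide without arrays 1, 2 and 3. Quantile normalization gave 35, of which 30 were shared, and chosen after seeing the data it took the genes low on array 3 from 29 to 14. Counts of expressed list members moved by over 1.5 times in 9 of 45 lists at the limit of 25, in 5 at 100, in 5 with the median over probe sets and in 8 with plain _at probe sets, where ribosomal proteins fell to 15, oxidative phosphorylation to 17, stem factors to 10 and glycolysis to 6, since many of their probe sets carry another suffix. With quantile normalization no list moved that far. No paired analysis was possible because 1 group was described and no test was made. The number of arrays limits precision, and at low signals a gene without expression and a weak probe set cannot be told apart.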

Other observations

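On chromosome 4, Cdkn2a (1.21 ± 0.700), Cdkn2b (2.65 ± 0.234) and Dmrta1 (2.56 ± 1.06) were all near the floor, each on its only probe set, while the neighbouring gene Mtap read 333, 304 and 342 and all 4 of its probe sets were expressed. These genes were picked after their values were seen, and no measurement of DNA was used here.

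Of 9 genes on the Y chromosome 0 were expressed, the brightest single signal being 26.1. Xist, the RNA of the inactive X, read 12.5, 11.8 and 13.4, under the limit on its 3 probe sets. On the X 221 of 617 genes were expressed (35.8%, against 40.8% of all genes). Among them were Ddx3x (2531, 2353 and 2844), Eif2s3x (1256 ± 27.8), Kdm6a (218 ± 49.5) and Kdm5c (99.1 ± 9.65), whose Y-linked counterparts include Eif2s3y (1.96 ± 1.34). Usp9y read 2.27 ± 1.79.

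Probe sets without a gene name in the table used also gave signal: 863 of 9160 reached 50 on all 3 arrays, as did 416 of the 932 with several symbols. The brightest unnamed one read 6829, 6914 and 8964.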
